A study of Homo sapiens with 6 samples.

Results

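The genes examined here are the histone lysine methyltransferases and demethylases, with some relatives, such as SETD3, that act on other targets. The methyltransferases add methyl groups to lysines of histones, and the demethylases take them off. All were chosen by symbol: genes whose names begin with KDM, KMT or SETD and a digit, with SUV39H or EHMT, or with NSD1 to NSD3, and DOT1L, ASH1L, SETMAR, SMYD2 and SMYD3. KDM1A and the Y-linked enzymes are not covered. The rule picked 48 of the 27968 genes in the deposited tables. Of these, 46 are enzyme genes, and the other 2 are the antisense RNAs KMT2E-AS1 and KDM4A-AS1, which match the name pattern. Measured values played no part in the rule, but the gene set was proposed with earlier results of these data known.

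RNA was sequenced from T47D, a luminal breast cancer line that expresses the estrogen receptor. One group had received siRNA against HOTAIR-N, which is a variant of HOTAIR, a long noncoding RNA, and the other group a control siRNA. Each group held 3 libraries from independent transfections with the lipid reagent RNAiMAX, and total RNA was taken at 48 hours. All cells were of 1 cell line, and the labels name no second HOTAIR siRNA and no rescue.

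Methylation of lysines 4, 36 and 79 of histone H3 (H3K4, H3K36, H3K79) is found mainly at active genes, whereas methylation of H3K9, H3K27 and H4K20 marks silent or compacted chromatin. The methyltransferases take the methyl group from S-adenosylmethionine, in most cases through a SET domain. Demethylases of the JmjC family use iron and 2-oxoglutarate, and those of the LSD family use FAD. HOTAIR has been studied in breast cancer cells as a partner of chromatin-modifying complexes.

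HOTAIR had 5.65, 5.63 and 5.68 CPM (counts scaled to library size by TMM) in the 3 HOTAIR-N siRNA libraries, against 16.2, 16.1 and 16.6 CPM with the control siRNA. The groups did not overlap, and HOTAIR was at 34.7% of its control level (log2 fold change -1.53, SE 0.07, adjusted p = 2.1e-09). The libraries held 31777001 to 36707169 expected counts each. All 11 luminal epithelial markers reached 1 TPM (a transcript abundance corrected for length) in at least 1 library, and their summed level was 8982 to 9796 TPM with the HOTAIR-N siRNA and 10517 to 11662 TPM with the control siRNA. Of 4 basal or myoepithelial markers 1, ACTA2, reached 1 TPM, and the list summed to 85.2 to 94.1 TPM with the HOTAIR-N siRNA and 21.2 to 23.7 TPM with the control siRNA. Of 5 fibroblast markers 3 (COL1A1, THY1 and VIM) did, with sums of 9.90 to 11.1 TPM with the HOTAIR-N siRNA and 8.86 to 10.1 TPM with the control siRNA. No endothelial or leukocyte marker reached 1 TPM, and these lists stayed at or below 0.05 and 0.27 TPM in every library. No marker of any list was at 0 in all libraries. The part of the marker shifts in the results that follow was not tested, and in bulk RNA fewer cells of a type and less RNA per cell cannot be told apart.

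Most of these enzymes were well expressed in T47D cells. The level averaged over all libraries reached 10 TPM in 41 of the 48 genes. The median over the 45 tested enzyme genes was 23.5 TPM, against 15.3 TPM over all tested genes. KDM2A, a CpG island-binding demethylase of H3K36, was the highest with 98.1 ± 2.51 TPM in HOTAIR-N siRNA cells and 119.7 ± 2.14 TPM in control cells (SD, n = 3 each). SETD3, which methylates a histidine of actin, had 78.4 ± 2.08 TPM with the HOTAIR-N siRNA and 112 ± 2.86 TPM with the control siRNA. SMYD2, which methylates H3K36 and p53, had 103 ± 3.54 TPM with the HOTAIR-N siRNA and 75.6 ± 1.44 TPM with the control siRNA. SMYD2 was thus the highest of the 3 in HOTAIR-N siRNA cells and the lowest of the 3 in control cells. The lowest tested enzyme gene was KDM4D at 1.14 TPM, and its relative KDM4E had 0 counts in both groups, where up to 3 counts per group are compatible with a count of 0. The summed level of all members was 1332, 1331 and 1330.3 TPM in the HOTAIR-N siRNA libraries and 1514, 1521 and 1509 TPM in the control libraries, so the groups did not overlap.

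**Figure D1:**
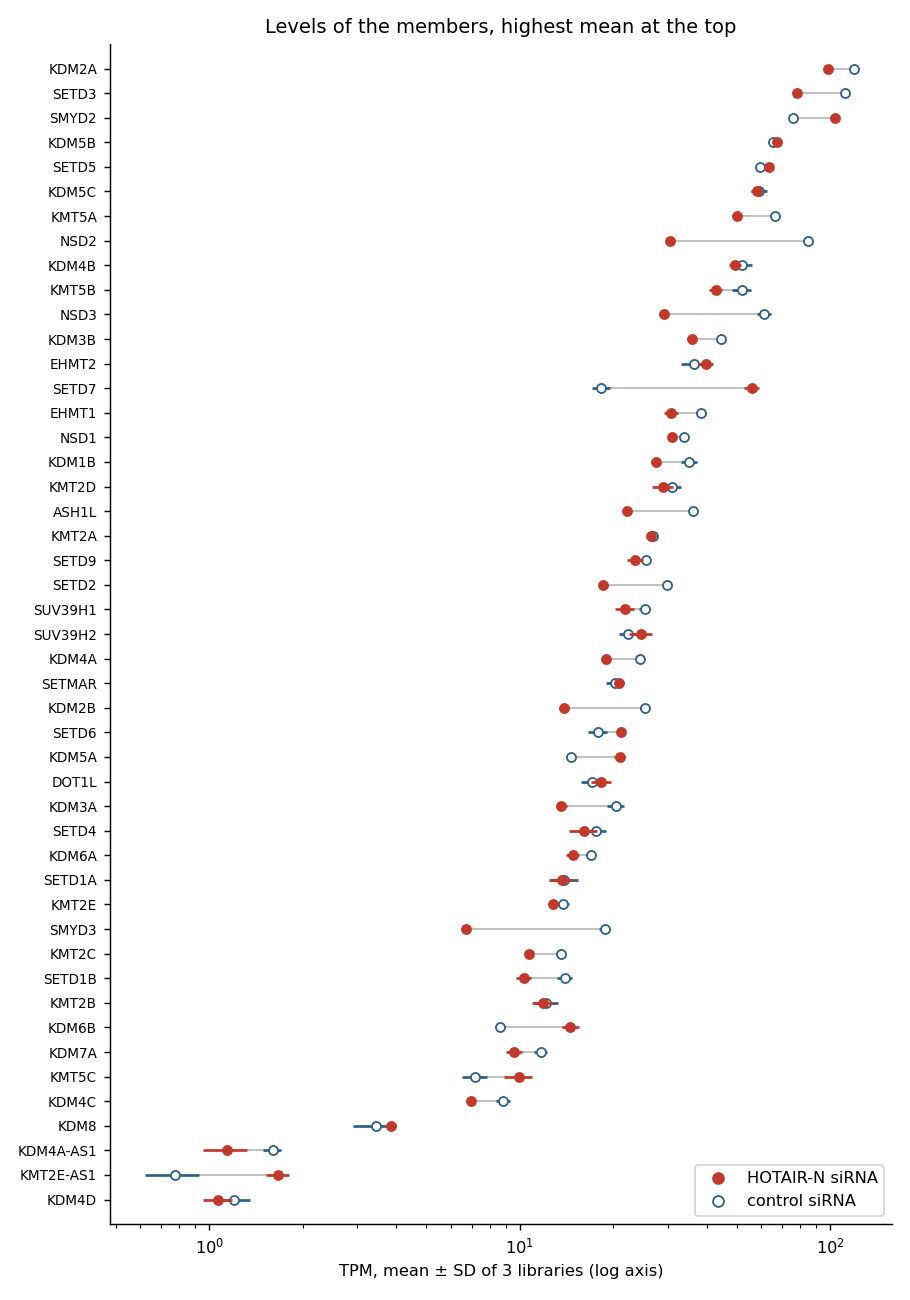
Level of each tested member in TPM on a log axis, with filled points for the HOTAIR-N siRNA mean, open points for the control siRNA mean and bars of 1 SD (n = 3 each), and with the antisense RNAs included. KDM2A, SETD3 and SMYD2 lie at the upper end and KDM4D at the lower.

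Of the 47 members with enough counts to test, 31 passed an adjusted p of 0.05 (66.0%, against 71.1% of all 14919 tested genes). The split between directions was uneven: 7 members were higher with the HOTAIR-N siRNA (14.9%, against 36.2% of all genes) and 24 were lower (51.1%, against 34.8% of all genes). The libraries of the groups did not overlap for 33 members, or 70.2%, against 73.4% of all genes. The median log2 fold change was -0.17 over the members and 0.02 over all tested genes. With library totals in place of TMM scaling the split was 12 higher and 20 lower (37.5% higher among those called, against 22.6% with TMM). The medians moved together under library totals, to -0.07 over the members and 0.12 over all tested genes. Directions over all genes were not counted under library totals. Under that scaling KMT2E, NSD1, SUV39H1 and KDM4A-AS1 were no longer called, and EHMT2, KDM5B, SETD5, SETMAR and SUV39H2 were called higher.

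Changes of at least 1.5-fold were found for 3 members upward (17.5% of all genes) and 8 downward (15.1% of all genes). Those lower were NSD2, NSD3, ASH1L, SETD2, KDM2B, KDM3A, SMYD3 and SETD3, and those higher were SETD7, KDM6B and KMT2E-AS1. Among the 29 methyltransferases 4 were higher and 14 lower, and among 16 tested demethylases 2 were higher and 9 lower. These counts, and those by role below, stand against 36.2% of all tested genes higher and 34.8% lower. The median log2 fold change was -0.12 for methyltransferases and -0.27 for demethylases. Enzyme genes have long transcripts (median 5603 bases, against 2893 over all tested genes), and across the 45 of them the log2 length and the log2 fold change had a Pearson r of 0.02, as a description over genes that share the same libraries.

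**Figure D2:**
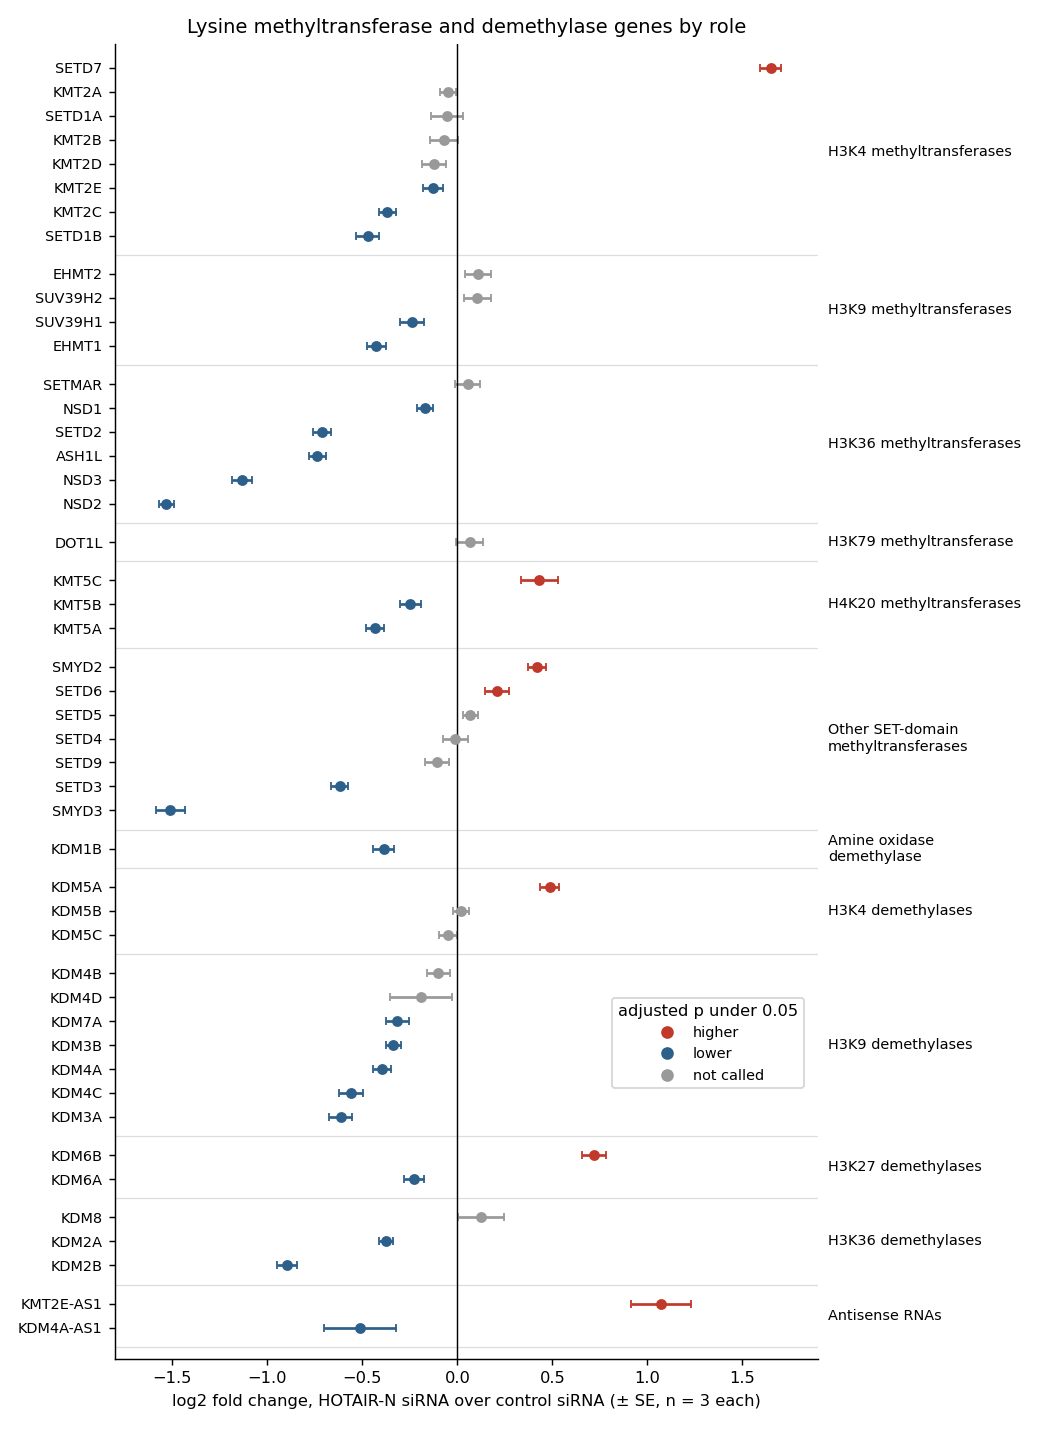
Log2 fold change of each tested member, HOTAIR-N siRNA over control siRNA, with bars of 1 SE, grouped by the role assigned to each gene. The H3K36 methyltransferases NSD2, NSD3, ASH1L and SETD2 lie far to the left, and SETD7 lies far to the right at 1.65.

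Of the 6 genes grouped as H3K36 methyltransferases 5 were lower, 0 were higher, and 4 fell by at least 1.5-fold, with a median log2 fold change of -0.73. Among all tested genes 34.8% were lower, and 15.1% were lower by at least 1.5-fold. SMYD2, which was higher, also methylates H3K36 but was counted with the other SET-domain genes. NSD2, which makes dimethyl H3K36 and is activated by translocation in multiple myeloma, had 116, 117 and 116 CPM in HOTAIR-N siRNA cells, against 333, 342 and 333 CPM in control cells. Every HOTAIR-N siRNA library lay far below every control library, at 34.6% of the control level (log2 fold change -1.53, SE 0.04, adjusted p = 4.75e-11). NSD3, its paralog with the same activity, had 69.1, 66.6 and 71.7 CPM with the HOTAIR-N siRNA, against 145, 160.5 and 149 CPM with the control siRNA. That was 45.6% of control, again without overlap (log2 fold change -1.13, SE 0.05, adjusted p = 2.28e-09). The third paralog NSD1, which is mutated in Sotos syndrome, moved far less, with a log2 fold change of -0.17 (SE 0.04, adjusted p = 0.00249).

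ASH1L, a trithorax-group enzyme of dimethyl H3K36, had 136, 133 and 142 CPM in HOTAIR-N siRNA cells, against 222, 238 and 227 CPM in control cells. The groups were separate (log2 fold change -0.74, SE 0.04, adjusted p = 2.27e-08). SETD2, which makes trimethyl H3K36 during transcription elongation, had 83.2, 79.3 and 84.2 CPM with the HOTAIR-N siRNA, against 132, 141 and 132 CPM with the control siRNA. It too was lower in every HOTAIR-N siRNA library, at 61.0% of control (log2 fold change -0.71, SE 0.05, adjusted p = 6.2e-08). SETMAR, a SET domain fused to a transposase, was not called (log2 fold change 0.05, adjusted p = 0.471), and its reads may be shared with related transposon copies. NSD1 was not called with library totals alone (log2 fold change -0.07, adjusted p = 0.11).

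Of the 3 genes grouped as H3K36 demethylases 2 were lower and 0 were higher. Each gene was given 1 role, and KDM4A, KDM4B and KDM4C were counted with the H3K9 demethylases. KDM2B, a CpG island-binding demethylase that recruits a variant PRC1 complex, had 39.0, 38.4 and 36.5 CPM with the HOTAIR-N siRNA, against 71.4, 68.2 and 72.2 CPM with the control siRNA. No libraries overlapped, and the level was 53.8% of control (log2 fold change -0.90, SE 0.05, adjusted p = 1.7e-08). KDM2A had 328, 323 and 310.3 CPM in HOTAIR-N siRNA cells, against 420.2, 410.5 and 415 CPM in control cells. It was lower in all 3 libraries but by less, at 77.2% of control (log2 fold change -0.37, SE 0.04, adjusted p = 2.33e-06). KDM8 was not called (log2 fold change 0.12, adjusted p = 0.379).

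Of the 8 H3K4 methyltransferases, 1 was higher, 3 were lower and 4 were not called. SETD7, a monomethyltransferase of H3K4 and of nonhistone proteins such as p53 and the estrogen receptor, had 203, 211 and 225 CPM in HOTAIR-N siRNA cells, against 66.4, 72.2 and 64.9 CPM in control cells. All HOTAIR-N siRNA libraries stood above all control libraries, 3.14-fold on average, the largest change of any enzyme gene here (log2 fold change 1.65, SE 0.06, adjusted p = 2.18e-10). Its level per length was 56.0 TPM with the HOTAIR-N siRNA and 18.3 TPM with the control siRNA.

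The KMT2 and SETD1 enzymes, which apart from KMT2E act within COMPASS complexes, showed smaller differences. SETD1B (log2 fold change -0.47, adjusted p = 1.97e-05) and KMT2C (-0.37, adjusted p = 1.87e-05) were lower, and KMT2C shares sequence with pseudogene copies, so its reads are uncertain. KMT2E, a divergent member without known activity on histones, was lower by a margin near the threshold (log2 fold change -0.13, adjusted p = 0.0412). The call was lost in 4 of the fits without 1 library, namely HOTAIR-N siRNA replicate 1 or 2 or control siRNA replicate 1 or 2 (adjusted p = 0.053 to 0.12). It was also lost with upper-quartile scaling (adjusted p = 0.22) and with replicate number as a block (adjusted p = 0.12). KMT2A (-0.05, SE 0.04), KMT2B (-0.07), SETD1A (-0.06) and KMT2D (-0.12, SE 0.06, adjusted p = 0.0947) were not called. KMT2D, which primes enhancers with monomethyl H3K4, had 307, 315 and 270.4 CPM with the HOTAIR-N siRNA, against 342, 301 and 330 CPM with the control siRNA, and these ranges overlapped. HOTAIR-N siRNA replicate 3 and replicate 2 of the control siRNA deviated from their groups in the same direction for 30 of the 45 enzyme genes. This was not particular to the enzymes, since over all 14919 tested genes the deviations of these libraries had a correlation of 0.22. Without both of these libraries KMT2D, KMT2B, KDM4B and SETD9 were called lower, for a total of 28 lower and 7 higher members. Calls over all genes rose in that fit too, to 11130 from 10605 with all libraries.

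Of the 3 H3K4 demethylases 1 was higher and 0 were lower. KDM5A, an RB-binding demethylase, had 119.4 CPM on average in HOTAIR-N siRNA cells and 85.3 CPM in control cells (log2 fold change 0.49, adjusted p = 2.99e-06). KDM5B, which is abundant in luminal breast cells, had 342 CPM in HOTAIR-N siRNA cells and 338 CPM in control cells (log2 fold change 0.02, SE 0.04, adjusted p = 0.676). KDM5C was likewise not called (log2 fold change -0.05, adjusted p = 0.383). KDM1B, the LSD-family demethylase of H3K4 and the only member that uses FAD, was lower (log2 fold change -0.39, adjusted p = 4.7e-05).

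Among the members grouped as H3K9 enzymes some were lower on both sides of the reaction, and 0 were higher. The name rule leaves out other H3K9 enzymes, which went both ways. SETDB1 was higher (log2 fold change 0.46) and HR was lower (-1.39). Of 4 methyltransferases EHMT1, the GLP partner of G9a, was lower (log2 fold change -0.43, adjusted p = 9.6e-06), as was SUV39H1, which trimethylates pericentric heterochromatin (-0.24, adjusted p = 0.00532). EHMT2, which encodes G9a, and SUV39H2 were not called, each with a log2 fold change of 0.11. Of 7 tested demethylases 5 were lower. KDM3A, a demethylase induced by hypoxia that also serves as a hormone receptor coactivator, had 34.2, 31.6 and 31.8 CPM with the HOTAIR-N siRNA, against 50.3, 52.6 and 46.5 CPM with the control siRNA. The groups did not overlap, and KDM3A was at 65.3% of control (log2 fold change -0.61, SE 0.06, adjusted p = 2.23e-06). The other 4 were KDM4C (-0.56), KDM4A (-0.40), KDM3B (-0.34) and KDM7A (-0.32), with adjusted p of at most 4.58e-04. KDM4B (-0.10) and the scarce KDM4D (-0.19) were not called.

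The pair of genes grouped as H3K27 demethylases went in opposite directions, and KDM7A was counted with the H3K9 demethylases. KDM6B, also known as JMJD3 and inducible by inflammatory signals, had 51.6, 52.1 and 46.1 CPM in HOTAIR-N siRNA cells, against 30.5, 28.9 and 31.4 CPM in control cells. It was higher in all 3 libraries, 1.65-fold (log2 fold change 0.72, SE 0.06, adjusted p = 6.57e-07). KDM6A, the X-linked UTX subunit of the KMT2C and KMT2D complexes, was lower with a log2 fold change of -0.23 (adjusted p = 0.00263).

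All 3 H4K20 methyltransferases passed the test, as did 71.1% of all tested genes. KMT5A, which makes the monomethyl mark and acts in the cell cycle, was lower (log2 fold change -0.43, adjusted p = 4.69e-06), and so was KMT5B (-0.25, adjusted p = 0.0017), while its paralog KMT5C was higher (0.43, adjusted p = 0.00166). DOT1L, the H3K79 methyltransferase and the one member here without a SET domain among the methyltransferases, was not called (log2 fold change 0.06, SE 0.07, adjusted p = 0.426).

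Of the 7 other SET-domain genes 2 were higher and 2 lower. SMYD3, a lysine methyltransferase of MAP3K2 and of histones, had 5.13, 5.20 and 5.36 CPM with the HOTAIR-N siRNA, against 14.5, 15.5 and 14.7 CPM with the control siRNA. The groups were far apart, at 35.1% of control (log2 fold change -1.51, SE 0.07, adjusted p = 3.92e-09). SETD3 had 107, 101 and 107 CPM in HOTAIR-N siRNA cells, against 159, 166 and 159 CPM in control cells. It was at 65.1% of control in libraries that did not overlap (log2 fold change -0.62, SE 0.04, adjusted p = 1.08e-07). SMYD2 had 82.4, 81.6 and 86.2 CPM with the HOTAIR-N siRNA, against 60.7, 63.6 and 62.7 CPM with the control siRNA. Its HOTAIR-N siRNA libraries were all higher, 1.34-fold (log2 fold change 0.42, SE 0.05, adjusted p = 7.31e-06). SETD6, which methylates RELA, was also higher (log2 fold change 0.21, adjusted p = 0.0106), a call lost without control siRNA replicate 1 (adjusted p = 0.07). SETD4, SETD5 and SETD9 were not called, with log2 fold changes of -0.01, 0.07 and -0.11.

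The antisense RNAs were both scarce. KMT2E-AS1 had 2.88, 2.92 and 3.33 CPM in HOTAIR-N siRNA cells, against 1.63, 1.13 and 1.58 CPM in control cells. It was higher in each library, 2.10-fold (log2 fold change 1.07, SE 0.16, adjusted p = 6.81e-05). KDM4A-AS1 was lower (log2 fold change -0.51, SE 0.19, adjusted p = 0.0292), a call lost without HOTAIR-N siRNA replicate 1 or 2 or control siRNA replicate 2 or 3 (adjusted p = 0.059 to 0.11). The DESeq2 Wald test did not call KDM4A-AS1 either (adjusted p = 0.12). No source used here states whether strand was used in counting, so reads of each antisense RNA and of its sense gene cannot be told apart.

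**Figure D3:**
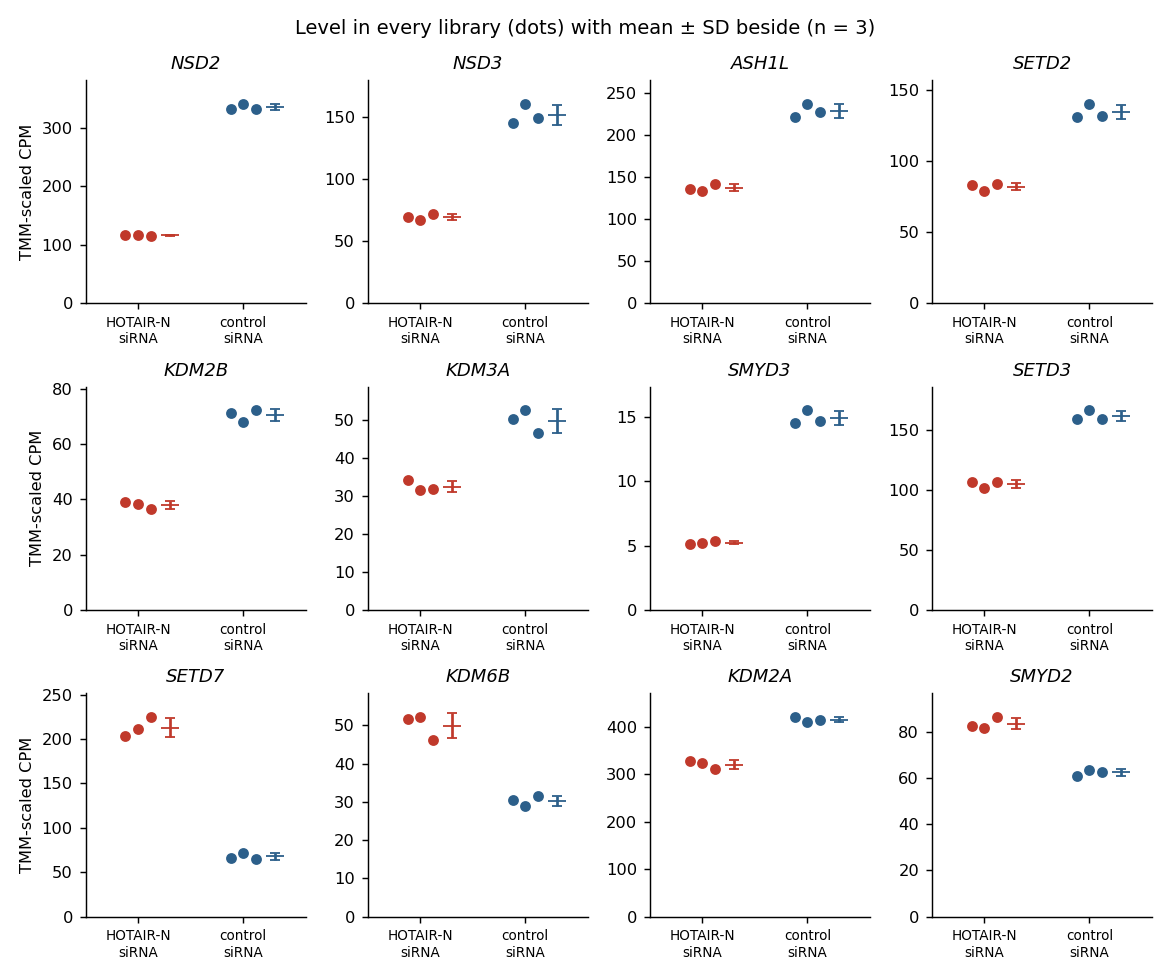
Expression in CPM per library for the enzyme genes that changed by at least 1.5-fold and for KDM2A and SMYD2, HOTAIR-N siRNA libraries to the left of control libraries, with the group mean ± SD beside the points and axes that start at 0. In each panel the 3 HOTAIR-N siRNA libraries lie on one side of the 3 control libraries.

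The transcript tables gave a readout that the choice of genes did not use. They list 171 RefSeq transcripts of the members, and 113 had enough counts to test. Of these 12 were higher (15.4% of all tested transcripts) and 28 lower (16.6% of all). The 12 became 5 without HOTAIR-N siRNA replicate 1 and 7 without either HOTAIR-N siRNA replicate 2 or control siRNA replicate 1. Use of transcripts within a gene was tested for 26 members with at least 2 tested transcripts, and 4 were called, NSD1, EHMT1, SETD2 and SETD3 (6.42% of all 7465 genes). Shares of a gene are RSEM's division of reads that its transcripts have in common, so they depend on that model. A test of each log2 share with limma called 6 members (13.7% of all genes): NSD1, SETD2 and SETD3 again, with KDM2A, KDM4C and NSD2, but not EHMT1 (adjusted p = 0.0581). NSD1 was called in each of the usage fits that left out 1 library. EHMT1 was called without HOTAIR-N siRNA replicate 1 or 3 and in none of the others, SETD2 without control siRNA replicate 2 and in none of the others, and SETD3 in none of them. Some members not called with all libraries were called in these fits, KDM6A and SETD9 without HOTAIR-N siRNA replicate 1, KMT2E without HOTAIR-N siRNA replicate 3, KDM2A without control siRNA replicate 2 and SETD5 without control siRNA replicate 3. On simulated counts this usage test made false calls more often than its threshold allows, and more often than the limma test. The limma test also exceeded its threshold, by less. The calls of EHMT1, SETD2 and SETD3 are thus less firm than that of NSD1. The count of called members was 1 without HOTAIR-N siRNA replicate 2 or without control siRNA replicate 1, and 2 without control siRNA replicate 3.

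The sequences below show, for forms of NSD1, EHMT1 and SETD3, the first splice site in shared coding sequence where each pair departs. The forms may also differ elsewhere, as the NSD1 forms do in their start and exon number (23 for NM_022455, 24 for NM_172349). In each line the last 15 bases shared before the split are in lower case and the first 15 bases of the form's own path are in capitals. They are read 5′ to 3′ on the gene's strand from the GENCODE v29 transcripts linked to the RefSeq identifiers (GRCh38).
NSD1 NM_022455: aggacagccctttcgGTAATGGTCAATCCA
NSD1 NM_172349: aggacagccctttcgGATGATCCAGATTCC
EHMT1 NM_001145527: cacatgctggttcagTTCTGCAGGCTGGGA
EHMT1 NM_024757: cacatgctggttcagGCGGGCGCTAATATT
SETD3 NM_199123: cacaccaacggcctgACACCAGAAGATTCC
SETD3 NM_032233: cacaccaacggcctgATCACTACTGGTTAC

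In NSD1 the last base shared before this split is position 177135200 of chromosome 5 on the plus strand. NM_022455 reads on into the next base, while NM_172349 skips 740 bases to position 177135941. NM_022455, the form of 2696 residues, made up 10.8%, 11.3% and 11.9% of NSD1 in HOTAIR-N siRNA cells, against 25.7%, 25.7% and 25.5% in control cells. Its share was lower in all 3 libraries by far more than their spread (usage adjusted p = 5.41e-07). The transcript itself fell (log2 fold change -1.33, SE 0.05, adjusted p = 4.08e-05), while NM_172349, the form of 2427 residues, had a log2 fold change of 0.11 (SE 0.03, adjusted p = 0.0626). The difference of NSD1 as a gene was thus smaller than that of its longer form.

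In EHMT1 the forms part after position 137782397 of chromosome 9, plus strand. NM_001145527 goes on at position 137784106 and ends after 16 exons with 808 residues, before the C-terminal SET domain, and NM_024757 goes on at position 137790848 through 27 exons to 1298 residues. The short form took 11.8%, 15.7% and 11.6% of EHMT1 with the HOTAIR-N siRNA, against 3.2%, 2.8% and 5.28% with the control siRNA. The long form NM_024757 took 13.0%, 8.92% and 14.7% with the HOTAIR-N siRNA, against 24.68%, 27.03% and 23.83% with the control siRNA. Neither form's shares overlapped between the groups (usage adjusted p = 0.0188). As transcripts the short form rose (log2 fold change 1.45, SE 0.33, adjusted p = 0.0216) and NM_024757 fell (-1.39, SE 0.16, adjusted p = 0.00171). The call of the short form was lost without HOTAIR-N siRNA replicate 1 or 2 or control siRNA replicate 1 or 2 (adjusted p = 0.0571 to 0.078). Most of the gene, 72.0% with the HOTAIR-N siRNA and 69.1% with the control siRNA, was assigned to NM_001354263, which differs little from NM_024757, so the division between those long forms is uncertain.

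In SETD3 the path divides after position 99412951 of chromosome 14, minus strand. NM_199123 joins position 99410215 and ends after 9 exons with 296 residues, and NM_032233 joins position 99406590 and has 13 exons and 594 residues. The short form took 14.5%, 14.6% and 13.0% of SETD3 in HOTAIR-N siRNA cells, against 4.28%, 4.48% and 4.51% in control cells. All HOTAIR-N siRNA shares were higher (usage adjusted p = 0.0476). The short transcript rose (log2 fold change 1.14, SE 0.13, adjusted p = 0.00156) while the long one fell (-0.68, adjusted p = 0.000171). In SETD2 the coding transcript NM_014159 took 84.2%, 82.4% and 83.0% with the HOTAIR-N siRNA, against 92.4%, 91.6% and 93.6% with the control siRNA (usage adjusted p = 0.0205), and the noncoding NR_146158 took the rest.

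With all libraries KDM2A, NSD2 and KDM4C were called by the limma test and not by diffSpliceDGE, and they are described because of their values. The short KDM2A form NM_001256405, of 723 residues and without the JmjC domain, took 52.6%, 52.7% and 51.9% with the HOTAIR-N siRNA, against 41.5%, 38.2% and 41.6% with the control siRNA (limma adjusted p = 0.0249). The full-length NM_012308, of 1162 residues, fell (log2 fold change -0.69, adjusted p = 0.000548), whereas the short form had a log2 fold change of 0.07 (adjusted p = 0.425). The full-length NSD2 transcript NM_001042424, of 1365 residues, took 59.2%, 68.3% and 55.1% with the HOTAIR-N siRNA, against 73.8%, 80.8% and 73.3% with the control siRNA (limma adjusted p = 0.00387). It fell (log2 fold change -1.83, adjusted p = 0.000112), and the forms of 629 and 647 residues that end before the SET domain fell by less (-0.74, adjusted p = 0.00714, and -0.41, adjusted p = 0.0191). The call of NM_133334, the form of 647 residues, was lost without HOTAIR-N siRNA replicate 1 or 2 or control siRNA replicate 1 (adjusted p = 0.0526 to 0.0652). A further NSD2 transcript close to NM_001042424 in length, NM_133335, took 5.24%, 0% and 12.1% with the HOTAIR-N siRNA, against 10.98%, 1.95% and 11.3% with the control siRNA, and was not called (log2 fold change -1.97, SE 1.39, adjusted p = 0.36). Its share varied widely within both groups, so the division between these transcripts is uncertain. In KDM4C, NM_015061 took 25.18%, 7.95% and 24.46% with the HOTAIR-N siRNA, against 66.03%, 60.04% and 58.55% with the control siRNA (limma adjusted p = 0.0377). Its transcript level fell (log2 fold change -2.05, adjusted p = 0.0159, or 0.0503 without control siRNA replicate 1). NM_001353997, close to it in length (5060 against 4961 bases), averaged 22.9% with the HOTAIR-N siRNA and 10.1% with the control siRNA. The shorter NM_001146696 averaged 37.7% and 17.9%. The division between these KDM4C transcripts is uncertain as well.

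**Figure D4:**
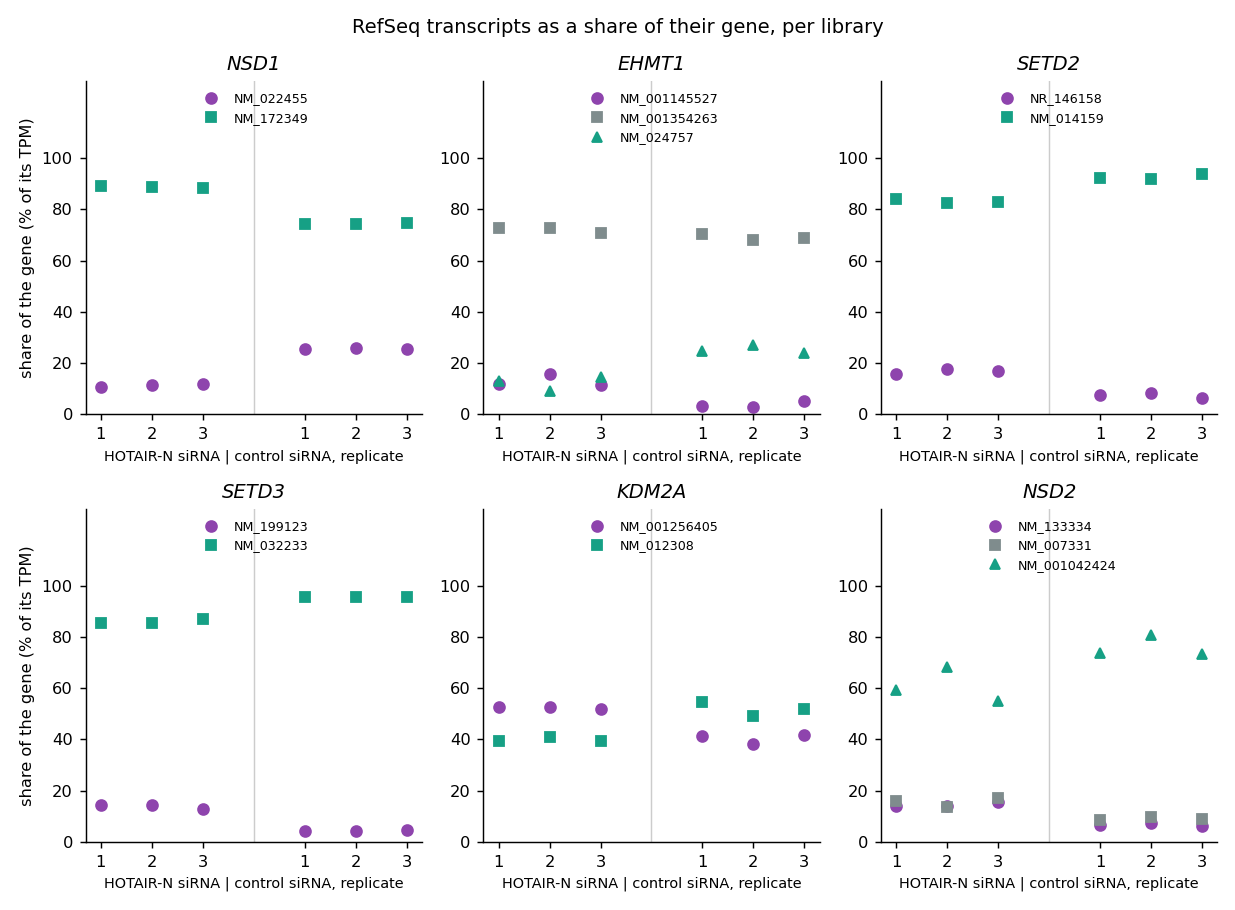
Share of each gene's TPM given to its main RefSeq transcripts, in percent, per library, with HOTAIR-N siRNA libraries on the left and control libraries on the right of each panel. The short forms of EHMT1, SETD3 and KDM2A have larger shares with the HOTAIR-N siRNA, and the share of NSD1 NM_022455 is 11.3% with it and 25.6% with the control siRNA.

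Genes that work with these enzymes were counted in lists that were written with earlier results known, and the 4 with the smallest p are named for each. Over all tested genes 36.2% were higher and 34.8% lower. Of 15 COMPASS and MLL complex subunits 2 were higher (13.3%) and 6 lower (40%), the last a share near that of all genes, with a median log2 fold change of -0.10. The coactivator NCOA6 of the KMT2C and KMT2D complexes fell most of these (log2 fold change -1.19, adjusted p = 4.19e-10). It had 59.8 ± 0.618 CPM with the HOTAIR-N siRNA and 137 ± 2.42 CPM with the control siRNA (SD, n = 3 each). PSIP1 (-0.69), PAXIP1 (-0.60) and BOD1L1 (-0.48) were lower too. Of the subunits shared by all COMPASS complexes, RBBP5 was lower (-0.39, adjusted p = 2.57e-05), ASH2L was higher (0.16, adjusted p = 0.00853), and WDR5 and DPY30 were not called. Of 14 readers and cofactors of H3K36 methylation 2 were higher (14.3%) and 9 lower (64.3%; median -0.21), and PHF1 (-0.67), ZMYND11 (-0.58) and MTF2 (-0.54) fell and MORF4L2 rose (0.40).

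Of 14 readers and cofactors of H3K9 methylation 2 were higher (14.3%, and 1 gene without control siRNA replicate 1 or 3) and 7 lower (50%; median -0.14). CBX5, which encodes the heterochromatin protein HP1-alpha, averaged 243 ± 23.7 CPM with the HOTAIR-N siRNA and 539 ± 27.9 CPM with the control siRNA (log2 fold change -1.15). The other HP1 genes CBX3 (-0.73) and CBX1 (-0.39) were lower as well, as was UHRF1 (-0.81). Of 17 tested SET, PRDM and related methyltransferases outside the rule 3 were higher (17.6%) and 12 lower (70.6%; median -0.36). CAMKMT, the methyltransferase of calmodulin, was at 40.3% of control, MECOM (-0.82) and PRDM4 (-0.59) were lower, and SETDB1, an enzyme that trimethylates H3K9, was higher with 153 ± 3.49 CPM in HOTAIR-N siRNA cells and 111 ± 0.931 CPM in control cells.

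Of 14 other JmjC oxygenases 9 were higher (64.3%) and 3 lower (21.4%; median 0.21). These were small differences, and a test against a 1.2-fold change called 2 of them higher and 2 lower. RIOX2 (0.43) and HIF1AN (0.37), a hydroxylase of HIF1A, were higher. HR, a corepressor with H3K9 demethylase activity, was at 38.1% of control (log2 fold change -1.39), and PHF2 was lower (-0.62). Of 15 DOT1L and super elongation complex partners 6 were higher (40%) and 4 lower (26.7%; median 0.07), shares near those of all genes. The elongation factor ELL2 was 6.15-fold higher and ELL3 higher (0.82), against EAF1 at 34.9% of control and AFF3 lower (-1.47). Of 16 tested enzymes of methyl donor and 2-oxoglutarate metabolism 3 were higher (18.8%) and 10 lower (62.5%; median -0.17), with 5 lower under library totals. The test against a 1.2-fold change called 7 of the SET and PRDM genes, 5 of the H3K36 readers and 4 of the methyl donor and 2-oxoglutarate enzymes lower. IDH1, which makes 2-oxoglutarate in the cytosol, was at 45.1% of control, MAT2A (-0.53) and AHCYL2 (-0.62) were lower, and the liver-type enzyme MAT1A was higher but scarce (4.02-fold). Each gene named in these lists as higher or lower passed the adjusted p of 0.05.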

How the data were processed

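Per the file headers, the deposited tables give RSEM's expected counts and TPM per gene or transcript and, for transcripts, the percent share of the gene. The submitters' processing notes name STAR 2.6.0c, RSEM 1.3.0 and hg19 but no settings. Libraries were stranded and depleted of ribosomal RNA, per the labels' protocols.

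Expected counts were rounded, filtered with filterByExpr (minimum count 10, minimum total 15), scaled by TMM and tested with edgeR 4.0.16's quasi-likelihood test in R 4.3.3 over the whole table, without covariates. P-values were adjusted by Benjamini-Hochberg and called under 0.05. Fold changes put the HOTAIR-N siRNA over the control siRNA, and each SE is the fold change divided by the root of its F. Usage was tested with diffSpliceDGE (Simes p) and, on log2 shares, with limma 3.58.1. Replicates differed by more than sampling noise in every pair. Structures, residue counts and sequences come from the GENCODE v29 transcripts linked to each RefSeq identifier, on GRCh38. The match of exon structures was not checked, and lengths can differ from the deposited ones. NSD2 NM_001042424, for example, has 4251 bases in GENCODE and 7572 in the deposited tables.

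The members and lists were chosen with earlier results of these data known. Every member is named. Values per library are given for members called at 1.5-fold or more and for the 3 most abundant, and transcripts for members with a usage call and a share moved by 10 points. SETD3, whose shares moved by 9.63 points, and SETD2, KDM2A, NSD2, KDM4C, KMT2D and the shared COMPASS subunits were described further after their values were seen.

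The gene and usage tests were tested on simulated counts, on which diffSpliceDGE made false calls above its nominal rate. The limma usage test made fewer, though also above its nominal rate. Both usage tests missed more of the planted changes than they recovered. Alternatives were other scalings (DESeq2 1.42.0 size factors, library totals, upper quartile), DESeq2, limma-voom, no filter, 1 CPM in 3 libraries, a replicate block, each library left out, HOTAIR-N siRNA replicate 3 and replicate 2 of the control left out together, and a test against a 1.2-fold change.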

Additional observations from a re-analysis of the deposited data

How the results depend on the processing

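The counts of higher and lower members stayed within 1.5 times of 7 and 24 under all alternatives but library totals, which gave 12 higher. Without 1 library they were 6 to 7 and 22 to 24. A test against a 1.2-fold change called 6876 of all genes, and called fewer genes in 6 of the 7 partner lists by more than 1.5 times in at least 1 direction. Replicate numbers did not pair the libraries: deviations of same-numbered libraries had correlations of -0.04, -0.21 and -0.12. Between libraries of different numbers they ranged from -0.13 to 0.22, highest for HOTAIR-N siRNA replicate 3 with control siRNA replicate 2. A batch shared under other numbers was not tested. With the replicate block 7 members were higher and 23 lower, 1 member had a usage call, and 5 transcripts of members were higher and 20 lower. Without 1 library, 1 to 4 members had a usage call, and 5 to 10 transcripts were higher and 21 to 28 lower; these transcript alternatives were chosen after seeing the data. The cause of these moves was not tested.

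Among single genes, 713 values kept their direction and call, 24 lost a call, 14 gained one and 17 changed sign, all of them in genes without a call. With library totals KDM5C was at 0.048, KMT2A at 0.049, KMT2B at 0.028, SETD1A at 0.042 and SETD4 at 0.086 (log2), and with upper-quartile scaling KDM5C was at 0.0073, KMT2A at 0.0080, SETD1A at 0.00073 and SETD4 at 0.046. Without 1 library, or without HOTAIR-N siRNA replicate 3 and replicate 2 of the control, DOT1L ranged over -0.0061 to 0.12, KDM5B over -0.0037 to 0.043, SETD1A over -0.14 to 0.011 and SETD4 over -0.092 to 0.026. The coefficient of variation between replicates had a median of 3.85% over the tested enzyme genes and reached 15.9%, which limits the smallest change that 3 libraries per group can show.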

Other observations

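The 7-mer GACCAAT was looked for on the transcript strand of GENCODE v29 3′ UTRs, since it had been picked on these same fold changes in earlier work and so supports nothing here. It is in 893 of 13212 tested genes with such a UTR (6.76%), whose median log2 fold change was -0.32, against 0.01 in the genes without it. Of 45 members with a UTR 3 carry it (6.67%), and of 23 lower members 2 do. The part of these letters in the members' values was not tested. The sites are shown with 9 bases on each side and the 7-mer in capitals (GRCh38).
ASH1L, chr1:155336265-155336271, minus strand: ctaatattgGACCAATgctgtccta
KDM6A, chrX:45110235-45110241, plus strand: caagtctatGACCAATttacattag
KDM6A, chrX:45112578-45112584, plus strand: gcaatgacaGACCAATaaacaattg
SETD6, chr16:58520048-58520054, plus strand: caacacaggGACCAATacatttgca
ASH1L and KDM6A were lower with the HOTAIR-N siRNA and SETD6 was higher.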
